A study of Homo sapiens with 8 samples.

Results

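The 10 genes described here encode serine/arginine-rich (SR) splicing factors: SRSF1, SRSF2, SRSF3, SRSF4, SRSF5, SRSF6, SRSF7, SRSF9, SRSF10 and SRSF11. They were taken by name from a table of 10105 genes, and all 10 were present in it. Raw counts per gene were available from 8 libraries of HEK293T cells, an established line derived from human embryonic kidney. Wild-type (WT) cells were compared with an XRN1-null line made from them by CRISPR/Cas9 with 1 guide RNA against the XRN1 gene, and both were grown under the same conditions without further treatment. Each genotype had 2 biological replicates for RNA-Seq and 2 for Ribo-Seq, which sequences the mRNA fragments protected by ribosomes (RPF). By the authors' account the RNA-Seq missed mRNA pieces without poly(A) tails. They propose that it also read 3′ pieces of cleaved mRNA, which accumulate in XRN1-null cells and are not translated. The mRNA counts used here can include such pieces. The null cells come from a single editing experiment, so the effect of the edit and any other difference between the lines cannot be told apart. The comparison asks how the mRNA and the ribosome occupancy of each SR gene differ when the main cytoplasmic 5′–3′ exoribonuclease is lost.

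SR proteins bind exonic sequences through RNA recognition motifs (RRMs) and recruit the spliceosome through a domain of arginine–serine repeats. Most of their genes can be spliced in an alternative way that brings in a premature stop codon, often within a so-called poison exon. Such transcripts are substrates of nonsense-mediated mRNA decay (NMD), and several SR proteins promote this splicing of their own pre-mRNA and thereby limit their own level. XRN1 degrades decapped mRNAs and the downstream fragments that the endonuclease SMG6 releases from NMD substrates.

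GENCODE, in its release 44 mapped to the GRCh37 genome (the coordinates of hg19), listed 28 NMD transcripts for these genes and at least 1 for each of the 10. In all 28 the stop codon lay more than 50 nt upstream of the last exon junction, at distances of 95 to 1149 nt. These distances describe transcripts that GENCODE had already typed as NMD and are not a test of the genes. A premature stop inside an extra exon was annotated for SRSF3, SRSF4, SRSF6, SRSF7, SRSF9 and SRSF11, in 13 transcripts and 11 distinct exons. In the other 4 genes the annotated route was different. A reference exon extended into the intron in SRSF1, SRSF5 and SRSF10, a frameshift also occurred in SRSF10, and an added intron lay downstream of the normal stop codon in SRSF2 and in 1 transcript of SRSF1. The name poison exon, in the sense of an extra exon, thus applied to 6 of the 10 genes in this annotation.

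The longest annotated extra stop exon of each of these 6 genes is shown from 20 intron bases before it through its stop codon, because these are the bases at which translation of the NMD transcript ends. Each is written 5′ to 3′ on the strand of the gene, and the capitals mark the stop codon. In SRSF4-208 this exon follows 2 other extra exons.

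SRSF3-203: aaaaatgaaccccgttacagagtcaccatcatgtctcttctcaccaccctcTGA
SRSF4-208: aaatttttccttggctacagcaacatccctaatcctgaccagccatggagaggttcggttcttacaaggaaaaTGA
SRSF6-202: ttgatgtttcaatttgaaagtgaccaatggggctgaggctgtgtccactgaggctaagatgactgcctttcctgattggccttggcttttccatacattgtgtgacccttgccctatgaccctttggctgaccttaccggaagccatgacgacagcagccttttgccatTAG
SRSF7-204: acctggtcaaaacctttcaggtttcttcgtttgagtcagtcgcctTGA
SRSF9-206: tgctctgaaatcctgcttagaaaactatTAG
SRSF11-212: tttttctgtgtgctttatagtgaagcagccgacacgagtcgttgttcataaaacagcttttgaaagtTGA

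The SRSF3-203 window is chr6:36567578-36567631 on the plus strand, and its exon of 456 nt gives a stop after 124 residues, against 164 in the reference protein. For SRSF4-208 the window is chr1:29492521-29492596 on the minus strand, with an exon of 175 nt and a stop after 160 residues, against 494 in the reference. SRSF6-202 is shown at chr20:42087773-42087944 on the plus strand, where an exon of 268 nt gives a stop after 135 residues against 344. SRSF7-204 is shown at chr2:38976461-38976508 on the minus strand, where an exon of 449 nt gives a stop after 137 residues against 238. The shortest of the 6 exons, that of SRSF9-206 with 90 nt, is shown at chr12:120902615-120902645 on the minus strand and gives a stop after 119 residues against 221. SRSF11-212 is shown at chr1:70697522-70697591 on the plus strand, where an exon of 117 nt gives a stop after 128 residues against 484. All 11 extra stop exons were preceded by the AG of a splice acceptor.

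The counts used here are sums over each gene and were not split by transcript. They therefore hold reads of normal and of NMD transcripts together, and the use of the exons above was not measured. RNA-Seq totals ranged from 33757487 to 38145433 counts per library and Ribo-Seq totals from 1921641 to 4399542. Single SR genes had 3947 to 25123 counts per RNA-Seq library and 223 to 3451 per Ribo-Seq library. Levels are given as CPM, the counts relative to the scaled library total. XRN1, as a check of the labels, had 34.4 and 49.8 CPM in the WT Ribo-Seq libraries and 22.6 and 18.4 CPM in the null ones, while its mRNA was at 33.5 and 33.0 CPM in WT and 282 and 253 CPM in XRN1-null cells. RPF of the targeted gene were thus lower in both null libraries, although its mRNA was higher. Of 6 HEK293T markers, 4 were in the table (NEFL, NEFM, INA and VIM), and 2 of them were called lower in mRNA, NEFM (log2 change −0.59) and INA (−0.46). Of 6 markers of other cell types, COL1A1 alone was in the table and was called higher, at 14.6 CPM mRNA in WT and 37.1 CPM in null cells, and the part of these markers in the results was not tested.

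The mRNA of 7 of the 10 SR genes differed between XRN1-null and WT cells, and the differences went in both directions. SRSF6, SRSF11, SRSF4, SRSF10 and SRSF7 rose, SRSF9 and SRSF1 fell, and SRSF2, SRSF3 and SRSF5 did not pass the test (FDR below 0.005 in edgeR's quasi-likelihood test, adjusted over all genes by the Benjamini-Hochberg method). Among all 10105 genes, 22.9% were called higher and 23.2% lower, so calls in either direction were common, and the share of SR genes called lower was close to the background. The median log2 change of the SR genes was 0.20, compared with −0.01 for all genes. Both null libraries lay above both WT libraries for 5 SR genes (41.0% of all genes) and below them for 3 (43.7% of all genes). In bulk RNA a change in RNA per cell and a change in the make-up of the culture cannot be told apart. With XRN1-null replicate 1 left out, 3 SR genes were called higher (16.2% of all genes) and 1 lower (11.0% of all genes). With XRN1-null replicate 2 left out, 2 were called higher (16.3% of all genes) and 1 lower (10.9% of all genes). SRSF1, SRSF7 and SRSF10 lost the call in both cases and SRSF4 in the second, at log2 changes of −0.34, 0.36, 0.46 and 0.61 without replicate 2. Leaving out WT replicate 1 or 2 gave 5 higher and 3 lower, with 31.6% and 33.7% of all genes higher and 30.8% and 33.5% lower.

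SRSF6, an SR protein with a pair of RRMs, showed the largest rise. Its mRNA was at 237 and 239 CPM in the WT libraries and at 436 and 419 CPM in the null libraries. The groups were far apart compared with the spread within them, and the log2 change was 0.84 ± 0.06 (SE), a 1.79-fold rise (edgeR's quasi-likelihood test, FDR = 3.0e-05). This change was larger than that of 91.9% of all genes.

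SRSF11, which interacts with spliceosome components, came next. It had 268 and 246 CPM in WT and 404 and 393 CPM in XRN1-null cells, with no overlap between the groups. The log2 change was 0.63 ± 0.07, or 1.55-fold (FDR = 0.000164, edgeR's quasi-likelihood test). SRSF4, a large relative of SRSF6, rose to a similar extent, by 0.63 ± 0.11 on the log2 scale (FDR = 0.00163, edgeR's quasi-likelihood test). Its WT libraries differed more from each other, at 155 and 198 CPM, than the null libraries, at 268 and 277 CPM, but all null values were above all WT values.

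Smaller rises were found for a pair of genes with distinct roles. SRSF10, which acts as a splicing repressor when it is dephosphorylated, went from 250 and 239 CPM in WT to 336 and 320 CPM in null cells. SRSF7, which has a zinc knuckle beside its single RRM, went from 253 and 262 CPM to 331 and 330 CPM. Neither gene had overlapping groups, and the log2 changes were 0.43 ± 0.06 for SRSF10 (FDR = 0.000801) and 0.36 ± 0.06 for SRSF7 (FDR = 0.0014) in edgeR's quasi-likelihood test.

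Genes that fell included SRSF9, a short SR protein with a pair of RRMs. Its mRNA was at 386 and 381 CPM in WT and at 253 and 251 CPM in null cells. The replicates were close to each other in both genotypes, and the mRNA decreased by 34.2% (log2 change −0.60 ± 0.06, FDR = 0.000112, edgeR's quasi-likelihood test). SRSF1, a founding member of the family with roles in splicing, export and translation, had 706 and 765 CPM in WT and 582 and 559 CPM in null cells. It decreased by 22.5% (log2 change −0.37 ± 0.07, FDR = 0.00201, edgeR's quasi-likelihood test). It had the highest CPM of the 10 genes in WT cells, whereas both null libraries were below those of SRSF3, at 608 and 595 CPM.

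SRSF5 also had lower values in both null libraries, at 104 and 119 CPM, than in the WT libraries, at 134.6 and 137 CPM. Its log2 change of −0.28 ± 0.08 did not pass the threshold (FDR = 0.0132, edgeR's quasi-likelihood test). SRSF3, the smallest SR protein, had 587 and 614 CPM in WT and 608 and 595 CPM in null cells. SRSF2, which like SRSF3 has a single RRM, had 529 and 499 CPM in WT and 516 and 535 CPM in null cells. For these genes the groups overlapped, and the 95% confidence intervals of the log2 change were −0.14 to 0.15 for SRSF3 and −0.12 to 0.18 for SRSF2. Any difference in their mRNA counts was thus small compared with that of SRSF6.

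**Figure D1:**
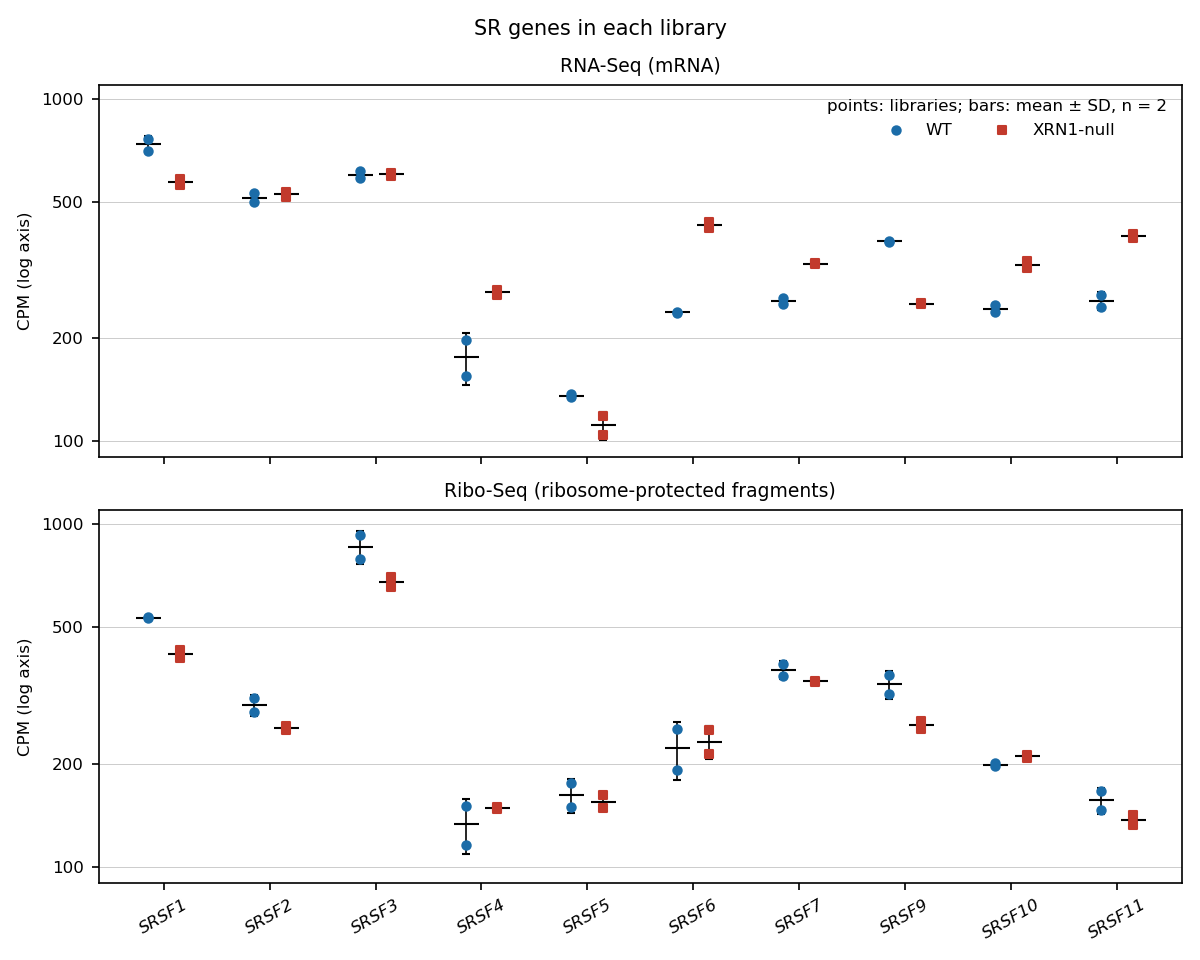
Levels of the 10 SR genes in each library, in CPM on a log axis, for RNA-Seq (top) and Ribo-Seq (bottom), with WT in blue circles and XRN1-null in red squares. Points are libraries, horizontal lines the mean and vertical bars the SD (n = 2). In mRNA the null libraries of SRSF4, SRSF6, SRSF7, SRSF10 and SRSF11 sit above those of WT, whereas in RPF the groups of SRSF4, SRSF5 and SRSF6 overlap.

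Some of these counts can include reads of other genes. Exons of SRSF2 overlap MFSD11 on the opposite strand and the microRNA gene MIR636, and exons of SRSF9 overlap GATC on the opposite strand. Exons of SRSF1, SRSF2 and SRSF6 also overlap genes without a symbol, namely ENSG00000266086 (same strand) and ENSG00000279069 (opposite strand) at SRSF1, ENSG00000267168 (opposite strand) at SRSF2 and ENSG00000288000 (same strand) at SRSF6. The RNA-Seq kit named in the methods does not mark strand, so reads of overlapping genes cannot be told apart. Named pseudogenes exist for SRSF3 (5), SRSF6 (2) and SRSF1, SRSF2, SRSF9 and SRSF10 (1 each), and how the counting treated reads that match them is not given in the sources used here.

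In the ribosome footprints, none of the 10 SR genes passed the threshold in RPF in edgeR's quasi-likelihood test, and DESeq2 and edgeR's likelihood ratio test also called 0. Over all genes 0.633% were called higher and 1.14% lower, so few calls were made in this assay. At an unadjusted p under 0.05 there were 3 SR genes, SRSF1, SRSF3 and SRSF9, all of them lower, where 16.8% of all genes were lower and 16.2% higher at this p. The median log2 change of the 10 genes in RPF was −0.15, against 0.00 for all genes, and it was −0.06 without WT replicate 2 of Ribo-Seq. Both null libraries were below both WT libraries for 6 SR genes (32.3% of all genes) and above them for 1 gene, SRSF10 (32.1% of all genes). Leaving out WT replicate 1 of Ribo-Seq gave 1 gene called lower, SRSF1, with 7.00% of all genes lower. Leaving out WT replicate 2 gave 3, SRSF1, SRSF3 and SRSF9, with 10.8% of all genes lower. When the RNA-Seq counts were thinned to the totals of the Ribo-Seq libraries, the mRNA test called 5 SR genes higher (17.8% of all genes) and 2 lower (15.4% of all genes).

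In the 5 genes with raised mRNA the log2 changes in RPF lay between −0.19 and 0.14. Without WT replicate 2 of Ribo-Seq they lay between −0.08 (SRSF11) and 0.36 (SRSF4), with SRSF6 at 0.28, and without WT replicate 1 between −0.27 (SRSF11) and 0.07 (SRSF10). SRSF6 had 192 and 252 CPM of RPF in WT and 214 and 250 CPM in null cells. The groups overlapped, and the log2 change was 0.05 with a 95% interval of −0.30 to 0.41, below the 0.70 at the lower bound of the interval of its mRNA. SRSF11 had 147 and 166 CPM in WT and 142 and 133 CPM in null cells, a log2 change of −0.19 (interval −0.50 to 0.11), against a lower bound of 0.47 for its mRNA. Its null libraries were both below the WT ones in RPF although both were above them in mRNA.

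SRSF4 had 116 and 150 CPM of RPF in WT and 147 and 150 CPM in null cells, a change of 0.14 on the log2 scale (interval −0.20 to 0.47). The lowest of these values came from the shallowest library, with 223 counts of the gene, and the groups overlapped. SRSF10 had 197 and 201 CPM in WT and 213 and 208 CPM in null cells (log2 change 0.08, interval −0.21 to 0.37). SRSF7 had 360 and 392 CPM in WT and 347 and 349 CPM in null cells (log2 change −0.11, interval −0.40 to 0.17, and −0.04 without WT replicate 2). The groups of SRSF10 and SRSF7 did not overlap, but the difference was in each case within the error of the fit.

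Among the genes without raised mRNA, SRSF3 had 928 and 793 CPM of RPF in WT and 655 and 700 CPM in null cells. Both null libraries were lower, by 21.2% in the fit (log2 change −0.34 ± 0.13, FDR = 0.0937, edgeR's quasi-likelihood test), while the log2 change of its mRNA was 0.00. Without WT replicate 1 the change in RPF was −0.22, and without WT replicate 2 it was −0.44. SRSF9 had 364 and 319 CPM in WT and 267 and 253 CPM in null cells (log2 change −0.39 ± 0.14, FDR = 0.0754, edgeR's quasi-likelihood test). SRSF1 had 532 and 534 CPM in WT and 430 and 406 CPM in null cells (log2 change −0.35 ± 0.13, FDR = 0.0815, edgeR's quasi-likelihood test). For SRSF1 and SRSF9 the lower RPF matched the direction of the mRNA.

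SRSF2 had 312 and 283 CPM of RPF in WT and 252 and 257 CPM in null cells, with a log2 change of −0.22 (interval −0.52 to 0.07, and −0.15 without WT replicate 1). SRSF5 had 149 and 175 CPM in WT and 148 and 162 CPM in null cells, with overlapping groups and a log2 change of −0.08 (interval −0.39 to 0.24). Its log2 change was −0.18 without WT replicate 1 and 0.06 without WT replicate 2. Added over the 10 genes, RPF were 3298 and 3266 CPM in WT and 2815 and 2867 CPM in null cells, while the summed mRNA was 3504 and 3581 CPM in WT and 3837 and 3798 CPM in null cells. The family as a whole thus had more mRNA and fewer footprints in both null libraries than in both WT libraries. These sums were not tested.

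**Figure D2:**
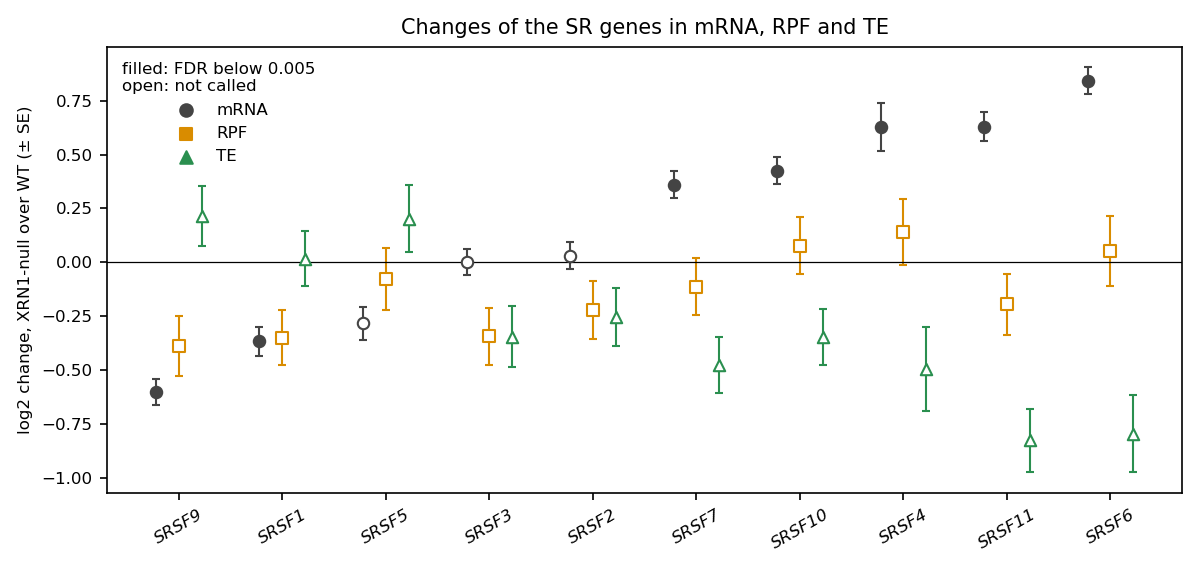
Log2 change of XRN1-null over WT on the y axis for each SR gene on the x axis, in mRNA (circles), RPF (squares) and translational efficiency (TE, triangles), ordered by the change in mRNA. Bars are ± SE from edgeR's quasi-likelihood fit, and filled symbols passed an FDR below 0.005. The mRNA changes run from −0.60 (SRSF9) to 0.84 (SRSF6), and the RPF changes from −0.39 to 0.14.

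Translational efficiency (TE), the RPF of a gene relative to its mRNA, was compared between genotypes by the interaction of assay and genotype over all 8 libraries. This interaction is the test of whether mRNA and RPF changed differently. None of the 10 SR genes passed an FDR below 0.005 in edgeR's quasi-likelihood test, against 1.78% of all genes called lower and 0.0495% called higher. At an unadjusted p under 0.05 there were 6 SR genes, all lower, where 14.6% of all genes were lower and 8.76% higher at this p. DESeq2 and edgeR's likelihood ratio test each called 2 lower, SRSF6 and SRSF11, and called 3.19% and 5.90% of all genes lower. The median log2 change in TE of the SR genes was −0.35, compared with 0.01 for all genes. Leaving out WT replicate 1 of Ribo-Seq, the shallowest library, also gave 2 genes called lower, with 2.28% of all genes lower.

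SRSF11 was nearest to the threshold. Its ratio of RPF to mRNA CPM was 0.548 and 0.675 in the WT replicates and 0.352 and 0.338 in the null replicates. These ratios divide libraries with the same replicate number and are given as a description, since the test did not pair them. The log2 change in TE was −0.83 ± 0.15 (FDR = 0.0054, edgeR's quasi-likelihood test). For SRSF6 the ratio was 0.809 and 1.06 in WT and 0.491 and 0.598 in null cells. The log2 change was −0.80 ± 0.18 (FDR = 0.0191, edgeR's quasi-likelihood test), and these 2 genes had the lowest values among the 10.

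SRSF7 had ratios of 1.43 and 1.50 in WT and 1.05 and 1.06 in null cells (log2 change −0.48 ± 0.13, FDR = 0.0457, edgeR's quasi-likelihood test). SRSF4 had 0.751 and 0.761 in WT and 0.549 and 0.540 in null cells (log2 change −0.50 ± 0.19, FDR = 0.149, edgeR's quasi-likelihood test), and its log2 change was −0.26 without WT replicate 2 of Ribo-Seq. SRSF10 and SRSF3 gave log2 changes of −0.35 and −0.34 (FDR = 0.133 and 0.162, edgeR's quasi-likelihood test), and SRSF3 had −0.22 without WT replicate 1 of Ribo-Seq. None of these genes passed the threshold. Since the ratio contains the mRNA, a gene with raised mRNA and level RPF has a lower TE by construction.

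The 2 genes with lower mRNA had TE changes above 0 that were not called. SRSF9 had a log2 change in TE of 0.22 (95% interval −0.09 to 0.52) and SRSF1 of 0.02 (−0.26 to 0.30). SRSF5 had 0.20 (−0.13 to 0.54) and SRSF2 had −0.25 (−0.55 to 0.04). With single libraries left out, SRSF9 ranged from 0.13 to 0.31 and SRSF5 from 0.11 to 0.35. Across the 10 genes the log2 changes in mRNA and RPF were correlated with Pearson's r of 0.743 and Spearman's rho of 0.721, and across all 10105 genes with 0.666 and 0.691. These correlations are across genes of the same libraries, which are not independent replicates, and are given as a description.

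**Figure D3:**
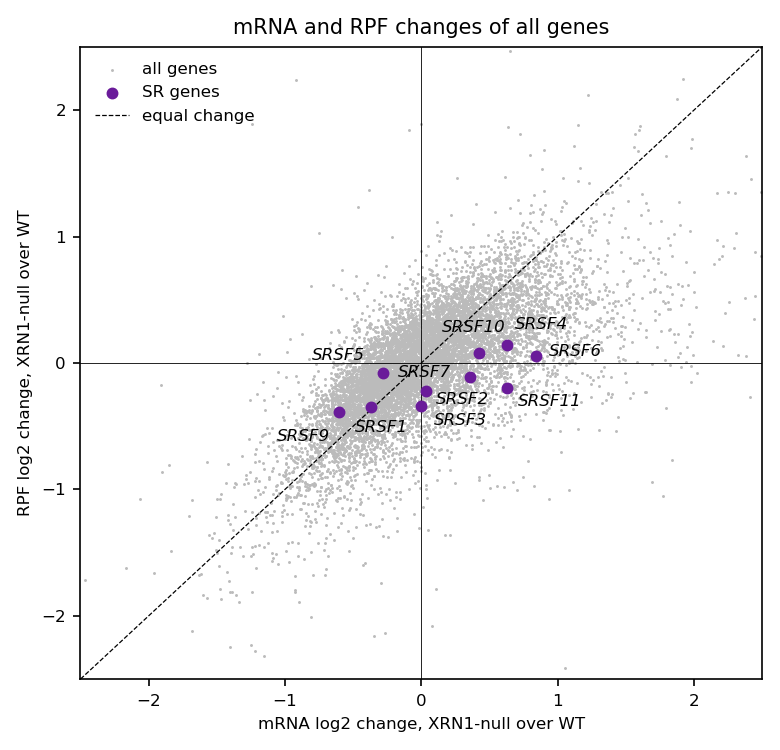
Log2 change of XRN1-null over WT in RPF (y axis) against that in mRNA (x axis), with 10052 genes in gray, the 10 SR genes in purple and a dashed line for equal changes. Axes end at ±2.5, which leaves out 53 genes. SRSF4, SRSF6, SRSF7, SRSF10 and SRSF11 lie to the right of the dashed line, with RPF changes between −0.19 and 0.14, and SRSF1 lies close to the line.

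The rank of the SR genes by abundance was compared per length, as CPM per kb of the gene width in the deposited table. How this width was defined is not given in the sources used here, and the order depends on it. The width was 1163 for SRSF9 and 8213 for SRSF10. In WT mRNA the highest was SRSF9 with 329.5 CPM per kb, followed by SRSF2 (174), SRSF3 (167), SRSF1 (130.3), SRSF7 (103), SRSF11 (92.1), SRSF5 (81.1), SRSF4 (69.7), SRSF6 (59.3) and SRSF10 (29.7). The WT libraries of SRSF2 and SRSF3 overlapped, and no other neighbours in this order did. In null cells SRSF1 moved from rank 4 to rank 8, at 101 CPM per kb, and SRSF11 from rank 6 to rank 4, at 143 CPM per kb. SRSF9 remained first with 217 CPM per kb and SRSF10 last with 39.9 CPM per kb. SRSF4 and SRSF6, which came out at 108 and 106 CPM per kb, were the only neighbours with overlapping null libraries.

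Per kb of coding sequence, RPF in WT cells were highest for SRSF3 with 1749 CPM per kb, followed by SRSF1 (716), SRSF7 (527), SRSF9 (515), SRSF2 (448), SRSF10 (253), SRSF6 (215), SRSF5 (199), SRSF11 (108) and SRSF4 (89.95). The WT libraries overlapped for SRSF7 and SRSF9, for SRSF6 and SRSF5, and for SRSF11 and SRSF4. SRSF3, at rank 3 in mRNA per gene width, was first in RPF per coding length in both genotypes. In null cells the first 8 ranks were the same, and SRSF4 (100.1) and SRSF11 (94.6) changed places. SRSF9 and SRSF2 were the only neighbours whose null libraries overlapped. Of the summed mRNA of the 10 genes, SRSF1 made up 20.1% and 21.4% in WT and 15.2% and 14.7% in null cells, and SRSF6 6.76% and 6.68% in WT and 11.4% and 11.0% in null cells. The mRNA pool of the family thus held less SRSF1 and more SRSF6 in both null libraries.

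The 6 genes with an annotated extra stop exon were described beside the 4 without one. Of the 6, SRSF4, SRSF6, SRSF7 and SRSF11 rose in mRNA, SRSF9 fell and SRSF3 was not called, with a median log2 change of 0.49. Of the 4, SRSF10 rose, SRSF1 fell, and SRSF2 and SRSF5 were not called, with a median of −0.13. The ranges were −0.60 to 0.84 and −0.37 to 0.43, so genes of both kinds moved in both directions, as did all genes (22.9% higher and 23.2% lower). The median change in RPF was −0.15 for either kind. In TE it was −0.49 for the genes with an extra stop exon and −0.12 for those without. With so few genes of each kind, no test was made.

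Other proteins of the same family and the enzymes that act on SR proteins were examined as groups listed by function. Of 4 further SR and SR-like genes (SRSF8, SRSF12, TRA2A and TRA2B), 1 rose and 1 fell in mRNA, close to the 22.9% and 23.2% of all genes, and 0 were called in RPF or TE. TRA2B, a splicing activator, rose from 236 ± 26.3 CPM in WT to 328 ± 2.39 CPM (SD, n = 2) in null cells (log2 change 0.48, FDR = 0.00167, edgeR's quasi-likelihood test). SRSF12 fell (log2 change −0.47, FDR = 0.0018, edgeR's quasi-likelihood test). The median of the 4 genes in mRNA was −0.08.

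SR proteins are phosphorylated by the SRPK and CLK kinases and carried into the nucleus by the importin TNPO3. Of 9 measured genes, which also include the kinases PRPF4B and DYRK1A, 4 rose and 0 fell in mRNA, with a median log2 change of 0.32, against 22.9% of all genes higher and 23.2% lower. All 4 were CLK kinases, namely CLK4 (1.47), CLK3 (1.06), CLK1 (1.03) and CLK2 (0.53). CLK1 also rose in RPF, from 16.7 ± 3.01 CPM in WT to 39.8 ± 2.00 CPM (SD, n = 2) in null cells (log2 change 1.20, FDR = 0.00296, edgeR's quasi-likelihood test), and its TE was not called (log2 change 0.17). CLK1 was the only gene of the group called in RPF, where 0.633% of all genes were called higher. The median of the group in RPF was 0.47. No gene of the group was called in TE, where 1.78% of all genes were called lower.

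Among 28 SR-related proteins, which carry arginine–serine repeats or work beside SR proteins but are not classed with them, 12 rose and 2 fell in mRNA (median 0.31), where 22.9% of all genes rose and 23.2% fell. The largest rises were those of RSRC2 (1.51), CCNL1 (1.40), a cyclin of CDK11, PRPF38B (1.38) and SREK1 (1.17). RNPS1, a protein that associates with the exon junction complex, fell in mRNA from 415 ± 1.01 to 198 ± 0.09 CPM (SD, n = 2) and in RPF from 222 ± 4.32 to 113 ± 7.61 CPM. It was the only gene of this group called in RPF (log2 change −0.97, FDR = 0.0026, edgeR's quasi-likelihood test). In RPF 1.14% of all genes were called lower and 0.633% higher. SREK1 and PRPF38B were called lower in TE (1.78% of all genes), with log2 changes of −0.996 (FDR = 0.00243) and −0.91 (FDR = 0.00275) in edgeR's quasi-likelihood test. RPF of SREK1 were at 35.2 ± 1.88 CPM in WT and 39.9 ± 2.17 CPM in null cells, a log2 change of 0.17 that was not called.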

How the data were processed

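HEK293T WT and XRN1-null cells were analysed by RNA-Seq and Ribo-Seq (2 biological replicates each). The authors filtered ribosomal RNA reads with Bowtie2, mapped the remainder to hg19 with Tophat2, selected periodic footprint lengths with RiboTaper, and deposited raw counts per gene from QuasR with a gene width. Genes had been filtered by FPKM, and no further gene was removed. The strand setting of the counting and its gene annotation are not given in the sources used here. The deposited fold changes, p-values and TE ratios were not used, and RiboDiff was not run. Groups came from the sample labels.

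Counts were tested with edgeR 4.0.16 in R 4.3.3 (TMM scaling within each assay, quasi-likelihood test, genotype as the only term, or assay, genotype and their interaction for TE), with Benjamini-Hochberg adjustment over 10105 genes and a threshold of FDR 0.005. SE are the log2 change divided by the square root of F. Functions were tested on simulated data. Sequences and transcripts came from GRCh37 and GENCODE release 44, read with pysam 0.24.0. Ribo-Seq libraries held 1921641 to 4399542 counts, and counts include PCR duplicates.

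The members, the gene lists and the alternatives (other scalings, DESeq2 1.42.0, the likelihood ratio test, a minimum of 10 counts, FDR 0.05, blocks, thinned RNA-Seq counts, each library left out) were chosen with earlier results of these data known. All 10 SR genes are named. For each other list the rule was to name at most the 4 called genes with the largest change in mRNA and up to 4 called in RPF or TE. SRSF8, TRA2A, TNPO3, PRPF4B and DYRK1A were named as list members only. Same-numbered replicates were checked for shared deviations (given with the effect of the alternatives).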

Additional observations from a re-analysis of the deposited data

How the results depend on the processing

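Of the SR genes, 5 were called higher and 2 lower in mRNA under every scaling and in DESeq2. SRSF5 was also lower, giving 3, under the likelihood ratio test (29.3% of all genes lower), an FDR below 0.05 (34.2%) and the replicate block (27.8%). Leaving out 1 library in turn, with the lone replicate assumed to vary like the others, gave 2 to 5 higher and 1 to 3 lower in mRNA, 0 to 3 lower in RPF and 0 to 2 lower in TE. For TE the number called lower was 1 (SRSF11) with RLE factors, library totals or at least 10 counts in every library, where 1.92%, 2.27% and 2.09% of all genes were lower. It was 2 with DESeq2 (3.19%), the likelihood ratio test (5.90%) or the culture replicate block (4.30%), and 3 at an FDR below 0.05 (6.46%). The replicate block gave 1, SRSF6 (1.88%). The cause was not tested. Same-numbered libraries had correlated deviations of r = 0.190 in RNA-Seq and 0.0803 in Ribo-Seq, and libraries with 1 genotype and number in both assays 0.355 (WT) and 0.0326 (null), so the numbers were not taken as pairs in any test without a block.

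The sign turned only for changes that were not called. With single libraries left out, the log2 change ranged from −0.01421 to 0.03365 for SRSF3 and from −0.01157 to 0.09404 for SRSF2 in mRNA, from −0.01568 to 0.3646 for SRSF4, from −0.1215 to 0.283 for SRSF6 and from −0.1759 to 0.06071 for SRSF5 in RPF, and from −0.04018 to 0.05641 for SRSF1 in TE. Single values were −0.01096 (SRSF3 mRNA without WT replicate 1), −0.06018 (SRSF6 RPF without null replicate 2), and −0.01189 and −0.02441 (SRSF1 TE). SRSF1 in TE was also at −0.02234 with library totals, −0.007131 with at least 10 counts and −0.02943 with thinned RNA-Seq counts. Over all genes the counts called higher and lower moved in RPF from 64 and 115 to 469 and 596 with the likelihood ratio test, 616 and 665 with the replicate block and 714 and 847 at an FDR of 0.05, and in TE from 5 and 180 to 71 and 596, 7 and 190, and 103 and 653. Library totals gave 133 and 164 in RPF, and DESeq2 and the culture replicate block gave 7 and 322 and 55 and 435 in TE. Thinned counts gave 1796 and 1556 in mRNA, against 2313 and 2344. With single libraries left out, 1632 to 3410 genes were called higher and 1097 to 3389 lower in mRNA, 71 to 1282 and 72 to 1087 in RPF, and 0 to 9 and 19 to 230 in TE. The SE of the SR genes was 0.13 to 0.16 in RPF and 0.06 to 0.11 in mRNA, and 0.08 to 0.10 in mRNA with the thinned counts.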

Other observations

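Of 16 splicing regulators outside the SR family whose own transcripts are also linked to NMD, 6 rose and 0 fell in mRNA (FDR below 0.005 in edgeR's quasi-likelihood test, adjusted by the Benjamini-Hochberg method), where 22.9% of all genes rose and 23.2% fell. The median log2 change was 0.28 in mRNA and 0.32 in RPF. PTBP2, the neuronal paralog of the splicing repressor PTBP1, had 23.9 ± 0.90 CPM of mRNA in WT and rose to 81.1 ± 2.45 CPM without XRN1 (SD, n = 2), whereas its RPF were at 20.4 ± 6.82 and 26.0 ± 0.28 CPM. RBM5, a regulator of apoptotic splicing, rose from 63.4 ± 1.15 to 206.7 ± 6.77 CPM in mRNA, with RPF of 39.2 ± 1.70 and 62.5 ± 1.86 CPM. These were the 2 genes of the list called lower in TE, with log2 changes of −1.52 (FDR = 0.0014) and −1.04 (FDR = 0.00129) in edgeR's quasi-likelihood test. Over all genes 1.78% were called lower in TE. RBM10 (0.72) and HNRNPH1 (0.71) also rose in mRNA, and HNRNPH1 had a log2 change of 0.73 in RPF that was not called (FDR = 0.0141, edgeR's quasi-likelihood test).

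The factors that carry out NMD were measured as well. Of 15 genes for NMD factors and the exon junction complex, 9 rose and 3 fell in mRNA, against 22.9% and 23.2% of all genes, with medians of 0.61 in mRNA and 0.52 in RPF. The largest rises were those of SMG9 (1.28) and UPF2 (1.26), followed by the helicase UPF1 (1.23) and the endonuclease SMG6 (1.07). SMG9 also passed the test in RPF (log2 change 1.12, FDR = 0.00333, edgeR's quasi-likelihood test), from 23.7 ± 5.49 to 53.9 ± 0.71 CPM (SD, n = 2). The kinase SMG1 rose from 132 ± 4.11 to 268 ± 27.2 CPM in mRNA, with RPF of 118 ± 8.68 and 118 ± 6.37 CPM, and was called lower in TE (log2 change −1.02, FDR = 0.00204, edgeR's quasi-likelihood test). Over all genes, 0.633% were called higher in RPF and 1.78% lower in TE. The 3 genes that fell in mRNA encode the exon junction core proteins MAGOHB (−0.83), MAGOH (−0.43) and RBM8A (−0.34). Of the other exon junction genes in the list, CASC3 was called higher (0.51) and EIF4A3 was not called (−0.06). MAGOHB, MAGOH, RBM8A, CASC3 and EIF4A3 were named after their values were seen.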
